A study of Oryza sativa with 6 samples.

Results

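Genes for beta-expansins and expansin-like proteins were followed in rice seedlings through 6 genes. These were the beta-expansin genes EXPB2, EXPB4, EXPB6 and EXPB8, and EXLA1 and EXLA2 of the expansin-like family A. The 6 were picked by name with earlier results of these data known, so counts among them are a description and not a test. They are 6 of the 17905 genes that the platform annotation pairs with a probe set of the Affymetrix rice genome array. The RefSeq gene table lists 20 beta-expansin and expansin-like genes, of which 15 had a probe set. Each of the 6 had 1 probe set in the choice, and the annotation paired every one of these with the gene named for it. The study compared a wild type and Epi-df, both of the japonica type, with 3 biological replicates of each and 1 array per replicate. Epi-df plants are known to be dwarfed and to carry an epigenetic variant of the Polycomb gene FIE1, and the labels name no transgene and no treatment in either group. All plants were grown for 3 weeks in artificial soil after their seeds had been soaked for 3 days, and total RNA came from seedlings, which hold several organs at once. In such material, fewer cells of a type and less RNA per cell cannot be told apart.

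Expansins are secreted proteins that loosen the plant cell wall without cutting its polymers, which lets cells under turgor enlarge. Grasses hold a large family of beta-expansins, thought to act on their xylan-rich walls, and the group-1 allergens of grass pollen belong to this family. Expansin-like A proteins have the 2-domain build of expansins, but they lack a conserved motif of the active site, and their activity on walls is not established.

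None of the 6 genes passed the test between the lines. The nearest to it was EXLA2, which was 1.41-fold lower in Epi-df, while EXPB8 had a log2 change of 0.0068. In 5 of the 6 the log2 change was below 0, against 46.1% of all 34355 tested probe sets, and the median change of the 6 was -0.45 against 0.013 over all tested. Every array of Epi-df lay below every array of the wild type in 3 of the 6, EXPB2, EXLA1 and EXLA2, where 9.76% of all tested probe sets had that order. At least a 2-fold change at an adjusted p under 0.05, the threshold of the study's design, was reached by 0 of the 6 and by 0.608% of all tested probe sets (limma, two-sided, Benjamini-Hochberg). At an unadjusted p under 0.05, with no fold threshold, there were 3 of the 6, the same 3 genes, against 14.4% of all tested. That count rested on single arrays: it was 1 of 6, EXLA2, without wild type replicate 1 (9.86% of all tested), and 4 of 6, EXPB2, EXPB4, EXPB6 and EXLA2, without wild type replicate 2 (11.5%). With the other arrays omitted in turn it was 2 or 3, and EXLA2 was in it each time. Without wild type replicate 2, 5 of the 6 had all Epi-df arrays below the wild type (12.9% of all tested). These values are probe set intensities on a linear scale. Changes are on the log2(intensity + 16) scale, where the added 16 damps the changes of dim probe sets, and each is Epi-df minus wild type with its standard error (SE). Levels are not compared between probe sets, whose brightness also depends on their own probes.

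**Figure D1:**
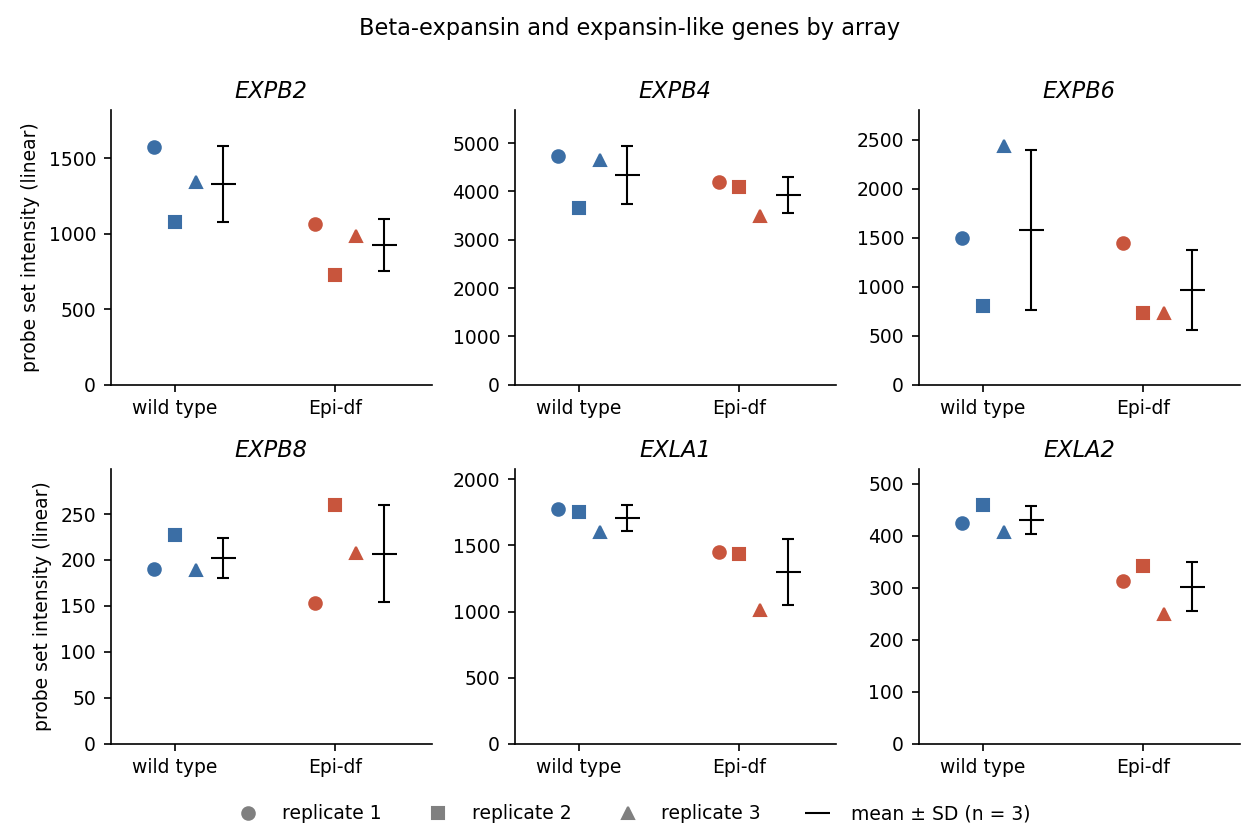
Intensity (linear scale, from 0) of the 6 genes on each array, with the mean ± SD of the 3 arrays of a group. The Epi-df arrays sit below all wild type arrays for EXPB2, EXLA1 and EXLA2, whereas EXPB6 spans 800.8 to 2434 within the wild type alone.

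The beta-expansin gene EXPB2 (LOC4349348), known from work on rice root growth, stood at 1576, 1075 and 1342 in wild type replicates 1, 2 and 3. In Epi-df replicates 1, 2 and 3 it stood at 1063, 729.8 and 985.6. The groups were apart by a narrow gap, since the highest Epi-df array almost reached the lowest wild type array. The mean was 1331 ± 250.5 in the wild type and 926 ± 174.2 in Epi-df (SD, n = 3 each). Its log2 change was -0.52 ± 0.18 SE, with a 95% interval from -0.93 to -0.10, which fell short of the threshold (limma adjusted p = 0.230). Replicate 2 was the lowest array in both groups.

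EXPB6 (LOC4349347), a gene linked to internode elongation in deepwater rice, varied most among its own replicates. Its wild type intensities were 1498, 800.8 and 2434 in replicates 1, 2 and 3. Its Epi-df intensities were 1442, 727.9 and 732.1. The groups overlapped widely: Epi-df replicate 1 was close to wild type replicate 1, and wild type replicate 2 was close to the lower pair of Epi-df arrays. The highest wild type array was 3.04-fold above the lowest, more than the 1.63-fold between the group means. The standard deviation within groups was 0.69 on the log2 scale, above that of 99.2% of the 4570 tested probe sets of like mean level (within 0.5 on the log2 scale). The log2 change of -0.63 ± 0.41 SE had a 95% interval from -1.60 to 0.33 (limma adjusted p = 0.584). It was the 1 gene of the 6 whose interval reached a 2-fold change, so at this spread a 2-fold fall could not be told from no change. Single arrays moved the value: it was -0.25 without wild type replicate 3, -1.05 without wild type replicate 2 and, with Epi-df replicate 1 omitted, -0.96.

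EXPB4 (LOC4349350), another of the beta-expansin genes studied in deepwater rice internodes, had the smallest spread within groups of the 4 beta-expansin genes. It measured 4727, 3659 and 4649 in wild type replicates 1, 2 and 3, and 4198, 4086 and 3502 in Epi-df. The ranges overlapped, with wild type replicate 2 below the upper pair of Epi-df arrays. The log2 change was -0.14 ± 0.12 SE with a 95% interval from -0.42 to 0.14 (limma adjusted p = 0.699). Without wild type replicate 2 the change was -0.26, -0.074 without wild type replicate 1, -0.087 without wild type replicate 3 and, with Epi-df replicate 3 omitted, -0.059, each also short of the threshold. The suffix _s_at marks a probe set whose probes match more than one transcript, so other transcripts may add to this value.

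EXPB8 (LOC4331298) had intensities of 190.4, 227.5 and 188.7 in the wild type and 153.6, 259.3 and 207.4 in Epi-df. Both the lowest and the highest of the 6 arrays were Epi-df arrays, so the wild type lay inside the range of Epi-df. The log2 change was 0.0068 ± 0.18 SE, with a 95% interval from -0.40 to 0.42 (limma adjusted p = 0.992). With single arrays omitted its sign turned in 4 of the 6 fits, and it lay between -0.16 (Epi-df replicate 2 omitted) and 0.19 (Epi-df replicate 1 omitted).

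The expansin-like gene EXLA1 (LOC4331516) was measured at 1777, 1750 and 1599 in wild type replicates 1, 2 and 3. In Epi-df it was measured at 1454, 1437 and 1009. The wild type arrays lay close together and all above Epi-df, in which replicate 3 was well under the other arrays. The mean was 1709 ± 95.8 in the wild type and 1300.0 ± 252.4 in Epi-df (SD, n = 3 each). The log2 change was -0.41 ± 0.14 SE, with a 95% interval from -0.75 to -0.071 (limma adjusted p = 0.244). The change was -0.24 when Epi-df replicate 3 was omitted.

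EXLA2 (LOC4349265), of the same expansin-like family, was measured by a probe set with the suffix _x_at at 423.9, 458.6 and 407.5 in the wild type and at 313.2, 342.2 and 249.7 in Epi-df. This was the clearest separation among the 6 genes, with a gap between the groups wider than the spread of the wild type arrays. The mean was 430.0 ± 26.1 in the wild type and 301.7 ± 47.3 in Epi-df (SD, n = 3 each). Its log2 change was -0.50 ± 0.13 SE, with a 95% interval from -0.79 to -0.21, again short of the threshold (limma adjusted p = 0.107). Another probe set of the same gene, with no such suffix, gave 332.8, 272.1 and 227.9 in the wild type and 228.6, 211.6 and 153.7 in Epi-df. There the groups touched, as Epi-df replicate 1 was just above wild type replicate 3. Its log2 change of -0.46 ± 0.18 SE was close to that of the first (limma adjusted p = 0.288). The suffix _x_at marks probes that may also bind related transcripts. Both EXLA1 and EXLA2 were lowest in Epi-df replicate 3.

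**Figure D2:**
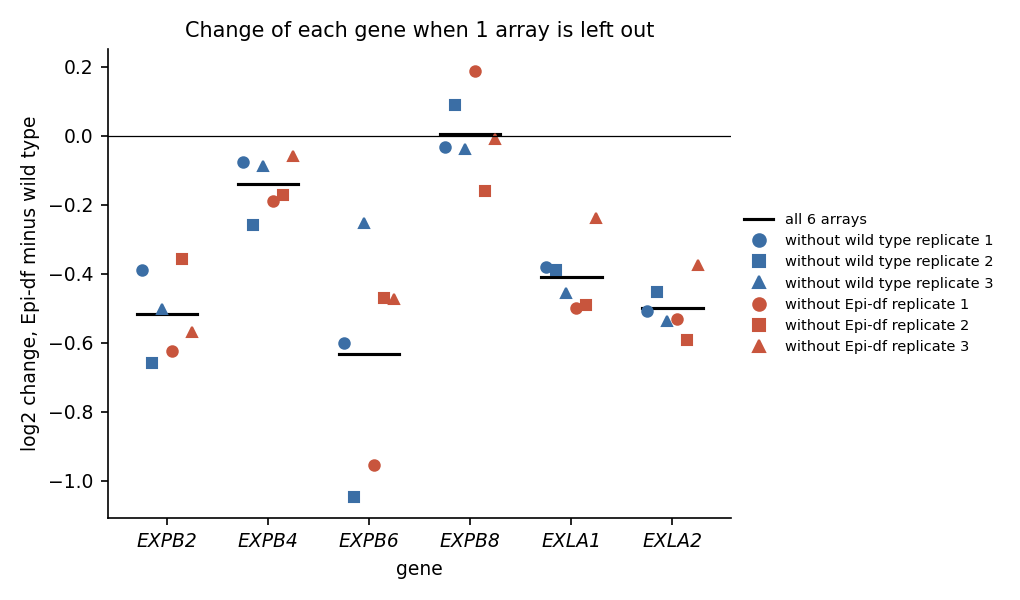
Log2 change of each gene (Epi-df minus wild type) with all 6 arrays (black line) and with 1 array left out (points; colour gives the group and shape the replicate left out). EXLA2 stays between -0.59 and -0.38, EXPB6 ranges from -1.05 to -0.25, and EXPB8 lies on both sides of 0.

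The intervals bound what these arrays can hold. For 5 of the 6 genes the whole 95% interval lay within a 2-fold change in either direction, and for 3 of them, EXPB2, EXLA1 and EXLA2, it lay below 0. Without wild type replicate 1 this left EXLA2 alone, since a 95% interval lies off 0 where the unadjusted p is under 0.05. The count of 5 within 2-fold holds for the fit with all 6 arrays. Without wild type replicate 2, EXPB2 was at -0.66 ± 0.18 SE, and its 95% interval then passed a 2-fold fall. The share of all tested probe sets with an interval inside a 2-fold change was not counted. These intervals are per gene and are not adjusted for the number of probe sets.

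Another 9 genes of both families had a probe set, and 6 of them were bright enough to be tested. None was called: 4 had a log2 change below 0 and 2 above, with a median of -0.27. EXPB3, a beta-expansin gene also studied in deepwater rice, was at 7215, 5762 and 8007 in the wild type and at 6443, 5234 and 5101 in Epi-df. The groups overlapped, and its log2 change was -0.32 ± 0.14 SE (limma adjusted p = 0.360). EXPB11, from the same family, was at 1476, 1036 and 2163 in the wild type and at 1370, 1299 and 683.1 in Epi-df. As with EXPB6, wild type replicate 3 was far above the rest, and the log2 change was -0.47 ± 0.33 SE (limma adjusted p = 0.608). The expansin-like gene EXLA3, named here after its value was seen, had a positive change, 0.35 ± 0.16 SE, with overlapping groups (limma adjusted p = 0.368). With the 6 genes described first, 12 members of these families were tested, and the median was -0.30. The change was below 0 in 9 and above in 3, where 46.1% of all tested probe sets were below 0. Every Epi-df array lay below every wild type array in 3 of these 12 (9.76% of all tested), which were EXPB2, EXLA1 and EXLA2. Among the 6 tested here that order was found in 0. The untested 3 were EXPB9, EXPB10 and EXPB18, whose mean levels lay under the filter at an intensity of 80.5.

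The alpha-expansins, the other large expansin family, had 8 tested members and no call. Their median log2 change was 0.17, with 6 above 0 and 2 below. EXPA2 had a change of -0.36 ± 0.43 SE and EXPA10 one of 0.10 ± 0.09 SE (limma adjusted p = 0.801 and 0.727). The difference in median between the families was not tested.

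**Figure D3:**
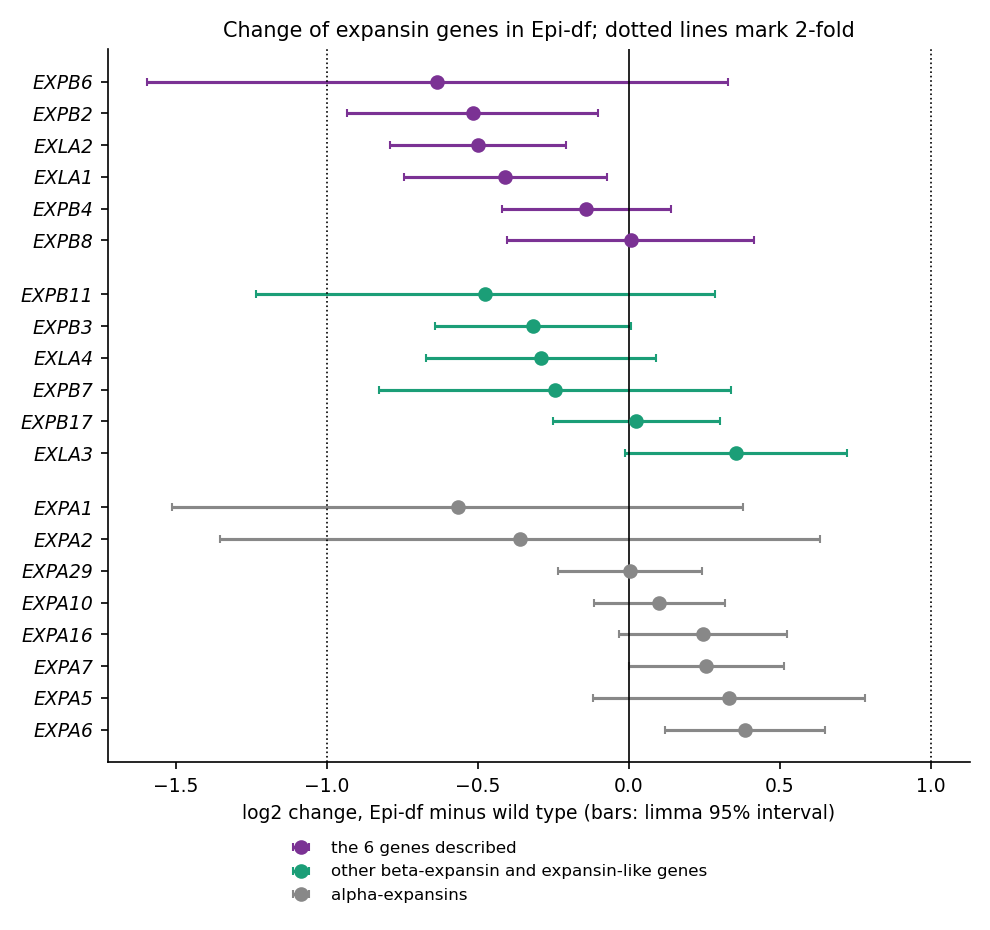
Log2 change in Epi-df with its 95% interval for the 6 genes described, the other 6 tested beta-expansin and expansin-like genes and 8 alpha-expansins. No interval lies beyond the dotted 2-fold lines as a whole, and the widest belong to EXPB6, EXPA1 and EXPA2.

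Lists of other wall-loosening genes, like those of the expansins, were made by gene name or synonym. Family members without such a name are not in them. Among the genes so listed, the pectin methylesterase inhibitor gene PMEI8 was the 1 called. Its wild type intensities of 68.9, 74.5 and 78.2 all lay under the filter level of 80.5, so it was tested through its Epi-df level alone and had to differ to be tested. It rose from 73.8 ± 4.66 to 365 ± 143.3 (SD, n = 3 each, limma adjusted p = 0.00965). This call was lost with wild type replicate 1 or wild type replicate 2 omitted (limma adjusted p = 0.0591 and 0.0502). PMEI28, of the same list of 2 tested genes, had a log2 change of -0.27 ± 0.15 SE. XTH8, the 1 gene in the list of enzymes that recut xyloglucan chains, had one of -0.35 ± 0.14 SE (limma adjusted p = 0.321). The endoglucanase list, whose enzymes cut glucan chains, had 8 tested genes with 0 called, 4 above 0 and 4 below, and a median log2 change of 0.03. GLU1 in that list had a change of 0.41 ± 0.13 SE and GLU2 one of -0.12 ± 0.06 SE (limma adjusted p = 0.202 and 0.490). At an unadjusted p under 0.05 (limma) there were 3 of these 8 endoglucanase genes and 1 of 8 alpha-expansins. There were also 1 of 2 pectin genes (PMEI8), the 1 listed xyloglucan gene, XTH8, and 0 of the other 6 beta-expansin and expansin-like genes. The share given above for all tested probe sets was 14.4%. One of the endoglucanase genes counted was GLU12, with a mean of 117.1 in the wild type and 73.1 in Epi-df. Its Epi-df mean lay under the filter level of 80.5. It was thus tested through its wild type level and, like PMEI8, had to differ to be tested.

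Some of the beta-expansin genes were high and low in the same arrays of each line. In the RefSeq gene table EXPB6, EXPB2, EXPB3 and EXPB4 stand next to each other with no gene between them. All 4 had their lowest wild type value in replicate 2 and their highest Epi-df value in replicate 1. Beyond these extremes their array orders differed. The same pair of extremes was found in 10.96% of all tested probe sets, in 6 of the 12 tested beta-expansin and expansin-like genes and in 5 of the 8 alpha-expansins. EXPB8, EXLA1 and EXLA2 did not have it, nor did the beta-expansin gene EXPB17. EXPB8 was highest in replicate 2 of each group, and EXLA1 and EXLA2 were lowest in replicate 3 of each group. This pattern was noticed in the data and is given as a description. Neighbouring family members can have similar sequences, and whether probes of one bind transcripts of another was not tested.

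Actin signal at the 3' end over that at the 5' end, a ratio read as a sign of RNA quality, also had its lowest wild type value in replicate 2 and its highest Epi-df value in replicate 1. It was 10.7, 9.83 and 9.90 in wild type replicates 1, 2 and 3, and 13.8, 7.72 and 9.20 in Epi-df. Actin signal was thus far stronger at the 3' end than at the 5' end on every array. The wild type arrays barely differed in this ratio, while those of Epi-df spread widely. For GAPDH the ratio was 2.33, 2.04 and 1.96 in the wild type and 2.11, 1.63 and 1.68 in Epi-df. Its lowest wild type value was thus in replicate 3, unlike that of actin, while its highest Epi-df value was in replicate 1. The part of RNA quality in these expansin values was not tested.

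**Figure D4:**
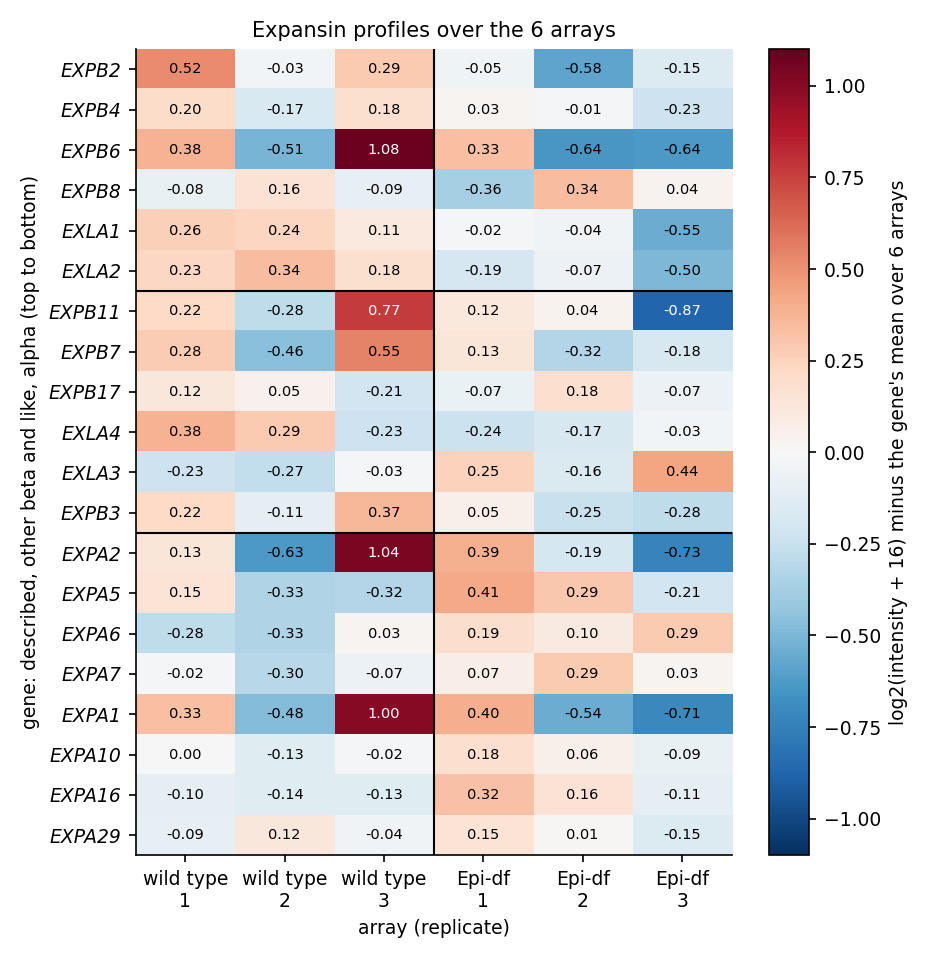
Profiles of the 20 tested expansin genes over the 6 arrays, as log2(intensity + 16) minus each gene's mean (colour and printed value). EXPB6, EXPA1 and EXPA2 share a high wild type replicate 3, at 1.08, 1.00 and 1.04. EXLA1 and EXLA2 are lowest in Epi-df replicate 3, as are EXPA1, EXPA2 and several other genes shown.

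The gene with a name whose profile came nearest to EXPB6 was another expansin gene, EXPA1. Likeness was measured as the root mean square difference between profiles of log2 values over the 6 arrays, each centred on its mean, among the 964 tested probe sets with a named gene. EXPA1 differed from EXPB6 by 0.07 on the log2 scale, where the profile of EXPB6 itself had a root mean square of 0.64. Its intensities were 291.6, 160.0 and 473.3 in the wild type and 307.2, 152.1 and 133.9 in Epi-df. Both genes were highest in wild type replicate 3, with wild type replicate 1 and Epi-df replicate 1 next. For EXLA2 the nearest was CPK12, a gene for a calcium-dependent protein kinase, at a difference of 0.04, and for EXLA1 it was CAD3, a gene for a cinnamyl alcohol dehydrogenase, also at 0.04. EXPB2 was nearest to UGE-1, a gene for a UDP-glucose epimerase, at 0.11. EXPB4 was nearest to SAPK4, a protein kinase gene, at 0.07, and EXPB8 to HIRL1 at 0.08. With 6 arrays and many candidates, some near profile is found for almost any gene, and no test was made of these.

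The arrays were alike in level, with median intensities of 108.1 to 114.5. Leaf genes were bright in every array: the 3 probe sets that stand for 4 named leaf markers summed to between 50530 and 52800 in the wild type and between 49830 and 57920 in Epi-df. The probe set shared by LHCP and CAB2R was higher in all Epi-df arrays, with means of 15570 in the wild type and 18920 in Epi-df (limma adjusted p = 0.078). For RBCS and RCA the groups overlapped. Of 4 anther and pollen markers none exceeded 133.7, and their sums were 299.4 to 351.2 and 281.3 to 344.0. The 2 root markers with a probe set summed to 392.2 to 466.7 in the wild type and 499.5 to 687.6 in Epi-df, mostly the silicon transporter gene LSI1. The 3 seed endosperm markers summed to 2418 to 2609 and 2813 to 3087. No marker was at 0. The root and endosperm sums were higher in all Epi-df arrays, but 1 gene carried each of them. In the endosperm list GLB was at 1842 ± 107.8 and 2337 ± 137.5, GLUA2 was at 633.7 ± 50.8 and 570.6 ± 39.3 (SD, n = 3 each), and GLUA1 lay under the filter. The part of organ makeup in the values of EXPB2, EXLA1 and EXLA2 was not tested. With 3 arrays in a group, the precision of all these values is limited.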

How the data were processed

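Biotin-labelled cRNA made from total RNA was measured on Affymetrix rice arrays, 1 per replicate. The deposited values are probe set intensities on a linear scale, made by the authors with MAS5 per the submitters' processing notes. Its version and scaling target are not given in the sources used here. Of 57381 probe sets, 123 controls were left out. Groups and replicate numbers came from the sample titles.

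The test was limma 3.58.1 (R 4.3.3) on log2(intensity + 16), two-sided, with an intensity trend in eBayes and no replicate block. It covered the 34355 probe sets at or above the 40th percentile of mean log2 value, over which p-values were adjusted by Benjamini-Hochberg. Alternatives were another pseudocount, filter, scaling, spread model, q-value, array weights, a replicate block and leaving out arrays or ambiguous probe sets. The fit was tested on simulated data.

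Gene names came from the platform annotation and RefSeq (assembly ASM3414082v1, names and gene order only), which matched all 6 genes. For other genes the probe set with the highest mean was used. Named beside the 6 are the called genes and the 2 with the highest mean of each list, and the gene nearest in profile to each of the 6. EXLA3, EXPB17, GLU12 and the untested beta-expansin genes are named outside that rule, as are the tissue markers. The genes, lists and tests were chosen with earlier results of these data known. No detection calls, probe sequences or batch information were used.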

Additional observations from a re-analysis of the deposited data

How the results depend on the processing

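None of the 6 genes was called in any alternative run, and EXPB2, EXPB4, EXPB6, EXLA1 and EXLA2 kept a change below 0 in all of theirs. Leaving out ambiguous probe sets gave no value for EXPB4 and EXLA2, and EXLA2 alone had another probe set. With array weights the log2 change of EXPB8 was -0.067, that of EXPB6 -0.37 and that of EXPB4 -0.078. When 1 array was left out, the change lay between -0.66 and -0.36 for EXPB2, -0.26 and -0.059 for EXPB4, -1.05 and -0.25 for EXPB6, -0.16 and 0.19 for EXPB8, -0.50 and -0.24 for EXLA1 and -0.59 and -0.38 for EXLA2. The count of probe sets called, 209, was 617 with no fold threshold, 496 at 1.5-fold and 319 with the replicate block. It lay between 108 (without wild type replicate 1) and 250 when 1 array was left out, and was 114 without wild type replicate 2.

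The labels do not say that replicate numbers pair the arrays, so the block was not used. The deviations of same-numbered arrays correlated at 0.14, 0.34 and -0.054 for replicates 1, 2 and 3. Wild type replicates 1 and 2 correlated best with the Epi-df array of the same number, and wild type replicate 3 with Epi-df replicate 1 (0.12). With the replicate block the adjusted p of EXPB2 was 0.0264 (limma) at an unchanged log2 change of -0.52, short of 2-fold. That of EXLA2 was 0.0620 and that of EXLA1 0.101. The cause of these differences between settings was not tested.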
